A study of Mus musculus with 37 samples.

Results

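These results describe 6000 genes in astrocytes of the contralateral hippocampus, the side opposite to a cortical injury, in mice with (PTE+) and without (PTE-) post-traumatic epilepsy. A gene was included when it had at least 10 estimated read counts in each of the 5 PTE+ and 10 PTE- libraries. The table lists 21975 genes, of which 14642 had enough counts to be tested, so the well-detected genes made up the better measured part and another 8642 tested genes fell short in at least 1 library. Of the 6000, 5985 were annotated as protein coding. Because a gene had to be present in every library of both groups, a gene that was silent in one group could not enter.

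Astrocytes take up glutamate and potassium released by neurons, supply them with lactate and lipoproteins, couple to each other through gap junctions and contact blood vessels. After brain injury and in epilepsy they can become reactive, a state known for raised intermediate filament genes such as Gfap and Vim, and they can lose part of their handling of glutamate, potassium and water. The comparison of PTE+ with PTE- mice asks how astrocytes differ between animals that received the same injury and did or did not develop seizures.

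All mice were adult male CD1 animals by the study's methods, while the labels write the strain as WT CD31. PTE+ and PTE- mice received a controlled cortical impact (CCI), a piston injury to the cortex of one side, and were recorded by EEG and video for seizures from 2 to 4 months afterwards. PTE+ mice had at least 2 epileptic episodes in these recordings, PTE- mice were injured mice that did not meet this definition, and 5 sham mice had surgery without the impact. Astrocytes were pulled from the dissociated hippocampus 4 months after injury with magnetic beads that recognise the astrocyte surface protein ACSA-2, and each library is the hippocampus of 1 mouse on 1 side. The contralateral side carried no direct impact, but in both the PTE+ and the PTE- group it came from an injured animal.

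Summed counts ran from 33819329 to 52945099 in PTE+ and from 25371887 to 55333329 in PTE- libraries. The well-detected genes held 82.0% to 85.5% of the counts in PTE+ and 83.8% to 88.4% in PTE- libraries. The number of genes with at least 1 count was 13859 to 15028 in PTE+ and 11756 to 15315 in PTE-, so the PTE- group was the more uneven one. Rank correlation (Spearman) between pairs of libraries over the well-detected genes had a median of 0.839 within PTE+, 0.741 within PTE- and 0.785 between the groups. PTE- mouse a9_20 and sham mouse a8_16 stood apart on the first 2 principal components of these genes, and PTE- mouse a8_11 had the lowest scaling factor (0.769), so counts are also given without these 3 libraries. Mouse a9_20 alone kept 943 further genes below 10 counts.

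Most well-detected genes sat close together in PTE+ and PTE- astrocytes, with a tilt toward lower values in PTE+. The study's methods ask for 3 things of a gene, namely an unadjusted p below 0.05, a difference of 1.2-fold or more and, in 1 of the groups compared, a mean above 5 TPM (a length-corrected share of the transcripts of a library). By these criteria 119 genes were lower and 29 higher in PTE+. That is 1.98% lower and 0.483% higher, beside 0.922% and 0.341% of all tested genes, and 148 genes or 2.47% in all, beside 1.26%. On the unadjusted p alone (edgeR quasi-likelihood test), 149 of the 6000 genes passed, or 2.48%, close to the 2.21% of all tested genes. Both shares are below the 5% that such a threshold passes by its definition where no gene differs.

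No well-detected gene had an adjusted p under 0.05 in edgeR (Benjamini-Hochberg over all 14642 genes; 1 gene among all tested, 0.00683%), and every adjusted p was 0.9998. DESeq2 gave 2 such genes, both lower in PTE+, namely Ctsb (log2 fold change -0.27, DESeq2 adjusted p 0.0188) and Gstk1 (-0.87, DESeq2 adjusted p 0.0195). The DESeq2 number among all tested genes is not given here, so these 2 cannot be set against that share. The limma fits on weighted counts and on log2(TPM + 1) gave 0. Below, a called gene is one that met the unadjusted criteria, in 5 against 10 animals.

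The lean toward lower calls depended on the scale on which libraries were made comparable. In the counts scaled by TMM (edgeR's trimmed mean factors) used here the median log2 fold change of the well-detected genes was -0.13 (-0.05 over all tested genes), and 80.4% of the calls were lower. Scaling on the well-detected genes alone gave 56 higher and 92 lower genes (62.2% lower), with 108 of the 148 genes shared. Quality-weighted limma gave 187 higher and 247 lower (56.9% lower). Log2(TPM + 1) moved the median to 0.10 and turned the split to 72 higher and 39 lower, with 49 genes shared, and log2(TPM + 0.1) gave 61 higher and 38 lower.

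**Figure D1:**
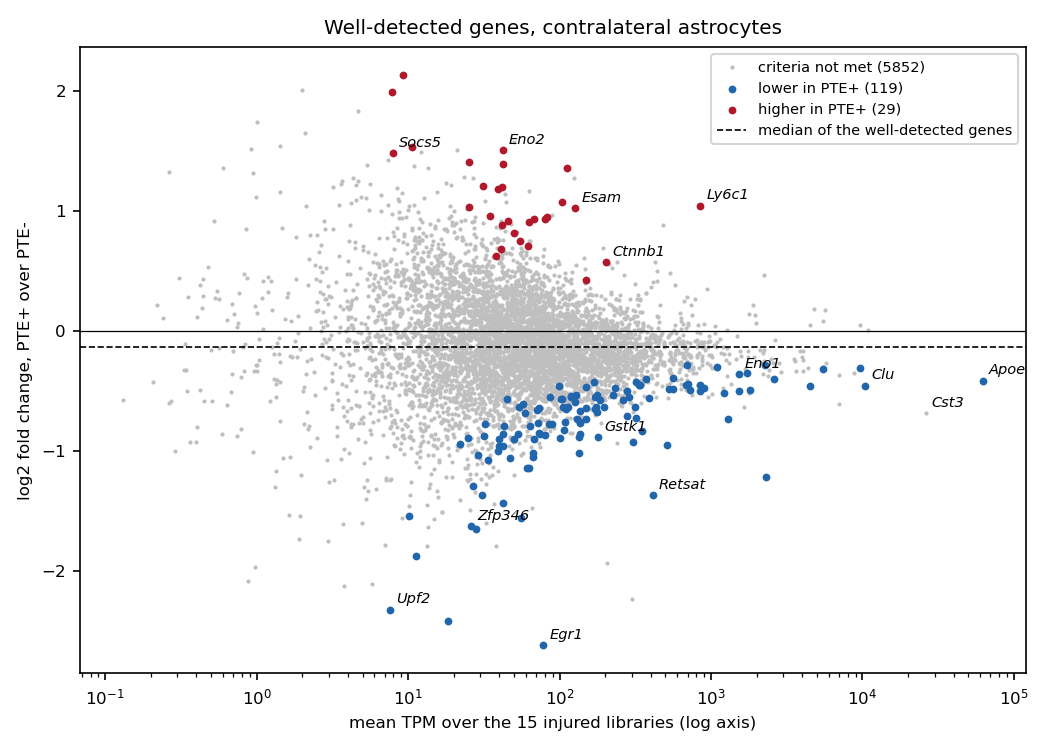
Each point is 1 of the 6000 well-detected genes, with its mean TPM over the 15 injured libraries (log axis) against its log2 fold change, PTE+ over PTE-. Blue points (119) are called lower and red points (29) higher; the dashed line is the median of -0.13, and the most abundant genes that were called, such as Apoe and Clu, lie below it.

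The precision of these genes follows in part from their choice by counts and is given as a description. Their median standard error was 0.44 on the log2 scale, and the biological coefficient of variation had a median of 0.589. The other tested genes, which had under 10 counts in some library, had medians of 1.33 and 1.53. The 95% interval of the difference lay within 2-fold in either direction for 2005 genes (33.4%) and within 1.5-fold for 244. Only 191 genes had an estimate of 2-fold or more, 121 lower and 70 higher. Among the 1500 genes with the lowest TPM the median standard error was 0.73 and 5 genes were called lower, and among the 1500 with the highest TPM it was 0.29 and 67 were. Higher calls numbered 4, 13, 7 and 5 in blocks of 1500 genes from the lowest to the highest TPM. In size, 97 lower and 14 higher calls were under 2-fold.

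**Figure D2:**
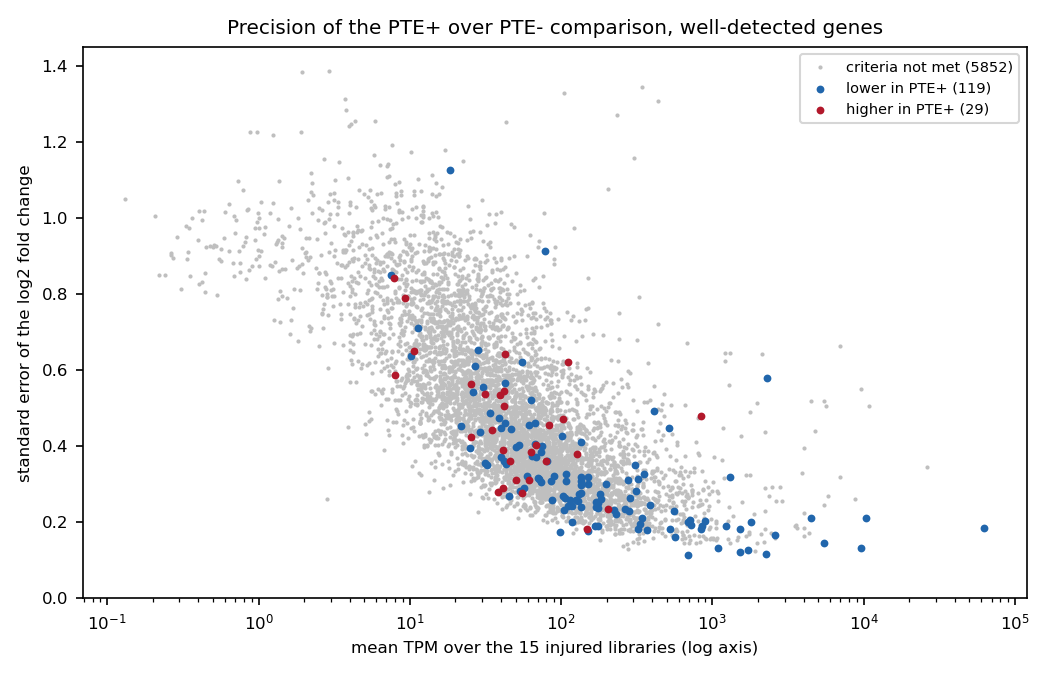
Standard error of the log2 fold change (PTE+ over PTE-) against mean TPM (log axis) for the 6000 well-detected genes, with called genes in blue (lower) and red (higher). The error falls from a median of 0.73 among the 1500 genes lowest in TPM to 0.29 among the 1500 highest.

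One gene separated the groups completely. Lsamp, which encodes a cell adhesion protein of the limbic system, ran from 464 to 566.3 CPM (counts scaled to a common library total, with TMM factors) in PTE+ and from 566.6 to 916.0 in PTE- libraries, so the highest PTE+ and lowest PTE- value all but touched. Its log2 fold change was -0.39 (unadjusted p 0.0237). No overlap was found for 0.0167% of the well-detected and 0.0478% of all tested genes. Lsamp is named here because its ranges did not overlap, after its values were seen.

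The genes with the smallest p among the lower ones covered detoxification and lipid metabolism, glycolysis, lysosomal lipid breakdown and an activity-regulated transcription factor. They were Gstk1, Gpr19, Zfp346, Eno1, Egr1, Rnf215, Retsat, Eno1b, Tbc1d17, Asah1, Upf2 and Tecr. In all 12 each of the 5 PTE+ libraries lay below the PTE- median, and 11 met the criteria in each of the 15 fits that left out 1 injured library. Over all 6000 genes 23 met the criteria in each of those fits, of which 1 was higher. The 12 were chosen by small p and a sign kept in those fits, so their evenness is no separate support for them.

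Egr1, an immediate early gene that encodes a zinc finger transcription factor induced by activity and growth factors, showed the largest of these differences. It read 53.5, 18.3, 26.9, 5.28 and 64.3 CPM in the 5 PTE+ libraries. In PTE- libraries it ran from 30.3 through a median of 112 to 709 CPM. Thus 7 of 10 PTE- libraries were above the highest PTE+ value, while the lower PTE- values overlapped with it. The means were 33.6 ± 24.6 (SD, n = 5) and 206 ± 219 CPM (SD, n = 10), a log2 fold change of -2.62 (SE 0.91, unadjusted p 0.00909, edgeR), or 6.13-fold lower in PTE+. Sham libraries averaged 183 ± 181 CPM (SD, n = 5), from 11.6 to 387 CPM. The call was lost in quality-weighted limma, with a log2 fold change of -1.28, and with detected genes per library as a covariate, with -1.93. Egr1 is on chromosome 18 (34859823 to 34864984, plus strand, mm10).

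Among the other immediate early genes none was called. For this and the lists below, the shares to read against are those of all 6000 genes, of which 64.9% had lower estimates and 2.47% were called. Of 20 listed genes, 12 were well detected, 10 had lower estimates and 1 (Egr1) was called, with a median log2 fold change of -0.44 beside -0.13 for all well-detected genes. Fos, the classic partner gene of this response, averaged 97.6 ± 101 CPM (SD, n = 5) in PTE+ and 459 ± 569 (SD, n = 10) in PTE-, a log2 fold change of -2.23 with a 95% interval from -4.64 to 0.17 (unadjusted p 0.0672). None of the 12 had an interval within 2-fold. Without PTE+ mouse a8_10 the list gave 5 lower calls, with detected genes per library as a covariate it gave 0, and in quality-weighted limma it gave 0 lower and 1 higher. Without PTE- mouse a9_15 it gave 1 lower and 1 higher call.

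Gstk1, a glutathione transferase of mitochondria and peroxisomes, read 74.3, 71.8, 45.6, 35.7 and 42.0 CPM in PTE+ libraries. In PTE- libraries it ran from 60.7 through 96.6 to 149 CPM. Of the 10 PTE- libraries 8 exceeded every PTE+ library. The log2 fold change was -0.88 (SE 0.27, unadjusted p 0.00387), the smallest p of the lower genes. It was -0.82 when scaled on the well-detected genes and -0.72 on log2(TPM + 1). Gstk1 is on chromosome 6 (42245935 to 42250447, plus strand). Retsat, which saturates retinol, averaged 252 ± 170 CPM (SD, n = 5) in PTE+ and 651 ± 391 (SD, n = 10) in PTE- libraries. Its PTE+ values were 294, 198, 160.1, 82.6 and 525 CPM, and PTE- values ran from 219.9 through 668 to 1325, so 2 PTE+ libraries lay inside the PTE- range. Tecr, an enzyme of very long chain fatty acid synthesis, was 1.41-fold lower (748 ± 172 against 1056 ± 254 CPM, SD, n = 5 and 10).

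Asah1, the lysosomal acid ceramidase, was tight in 4 of the 5 PTE+ libraries. It read 132.2, 132.3, 132.1 and 137 CPM in mice a8_10, a9_17, a9_18 and a9_19, and 221 in a8_17. PTE- libraries ran from 153 through 231 to 344 CPM, so the 4 lay below every PTE- library and the fifth near their median. The log2 fold change was -0.66 (SE 0.24, unadjusted p 0.0118), and sham averaged 237 ± 101 CPM (SD, n = 5). The cathepsin genes Ctsb and Ctso, which encode lysosomal proteases, were also called lower. Ctsb averaged 903 ± 66.8 against 1099.6 ± 111 CPM (SD, n = 5 and 10), with 9 of 10 PTE- libraries above every PTE+ library, and Ctso 287 ± 61.6 against 386 ± 77.2 CPM. Of the 11 well-detected cystatin and cathepsin genes 10 had lower estimates, with a median of -0.28, and none was called without PTE- mouse a8_11, without PTE+ mouse a9_17 or when scaled on the well-detected genes. In the lysosome and autophagy list 1 of 24 genes was called, Lamp2 (-0.64), a lysosomal membrane protein, and 21 had lower estimates (median -0.18).

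Enolase genes of glycolysis went in opposite directions. Eno1, the widely expressed enolase, read 1519, 1592, 1533, 1489.7 and 1831 CPM in PTE+ and ran from 1671 through 1904 to 2492 in PTE- libraries, so 4 of 5 PTE+ values lay below every PTE- value. The difference was small, a log2 fold change of -0.36 (SE 0.12, 95% interval -0.61 to -0.11, unadjusted p 0.00682, edgeR). It was -0.25 in quality-weighted limma and -0.21 on log2(TPM + 1). Eno1b is a near-identical copy of Eno1 on chromosome 18, its counts are therefore uncertain, and its difference (-0.35) is not separate from that of Eno1, whose own counts share this limit. Eno2, the neuronal enolase, read 38.9, 54.8, 140.3, 64.7 and 192 CPM in PTE+ and ran from 6.23 through 39.7 to 88.8 in PTE-. Its log2 fold change was 1.51 (SE 0.55, unadjusted p 0.0115), with 4 of 5 PTE+ libraries above the PTE- median, and without PTE+ mouse a9_19 it was 1.12 (unadjusted p 0.0698). Sham libraries averaged 96.1 ± 67.4 CPM (SD, n = 5), close to PTE+ (98.1 ± 65.2) and above PTE- (34.5 ± 24.6, n = 10). Within the mice whose names begin with a8 (2 PTE+, 4 PTE-) the Eno2 difference was -0.09 in log2(CPM + 1), and within a9 (3 and 6) it was 2.79. The other 22 of the 23 genes named by direction had the same sign within both name prefixes. All 23 were chosen on these same libraries, so this agreement is no separate support for them.

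The rest of glycolysis lay between these. Of 27 well-detected genes of glycolysis and glycogen, 17 had lower and 10 higher estimates, with a median log2 fold change of -0.13, and 23 had intervals within 2-fold. Only Eno1 and Eno2 were called.

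Gpr19, an orphan G protein-coupled receptor, read 36.6, 108, 89.2, 58.4 and 90.2 CPM in PTE+ libraries and ran from 74.7 through 128 to 213 in PTE-, and 9 of the 10 PTE- libraries exceeded every PTE+ library. The log2 fold change was -0.86 (SE 0.28, unadjusted p 0.00536), and sham averaged 141 ± 33.1 CPM (SD, n = 5), near the PTE- mean of 138 ± 39.9. Zfp346, a zinc finger protein that binds double-stranded RNA, was 3.09-fold lower (14.6 ± 7.41 against 45.2 ± 28.1 CPM). Upf2, a factor of nonsense-mediated mRNA decay, had a log2 fold change of -2.32 (SE 0.85, unadjusted p 0.0123), with PTE+ values of 12.6, 2.14, 5.41, 6.18 and 3.77 CPM and PTE- values from 1.99 through 22.1 to 117. Sham averaged 7.82 ± 2.32 CPM for Upf2 (SD, n = 5), near PTE+, and quality-weighted limma gave a log2 fold change of -0.86. Rnf215, a membrane ubiquitin ligase (1.45-fold), and Tbc1d17, a regulator of Rab GTPases in membrane traffic (1.84-fold), were lower as well.

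Upstream sequences of Gpr19, Eno1 and Eno2 are shown because Egr1 had the largest difference of these genes and its known binding sites can be looked for in them. Each is the 250 bases before a RefSeq start (GRCm38.p6), 5′ to 3′ on the gene's strand, with capitals marking a match to GCGGGGGCG or GCGTGGGCG on either strand.

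Gpr19, chr6:134897926-134898175, minus strand: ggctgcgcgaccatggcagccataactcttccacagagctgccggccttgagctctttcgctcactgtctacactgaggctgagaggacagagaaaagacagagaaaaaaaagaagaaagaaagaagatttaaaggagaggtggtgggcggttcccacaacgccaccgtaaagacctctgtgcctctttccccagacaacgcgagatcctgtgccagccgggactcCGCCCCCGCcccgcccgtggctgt

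Eno1, chr4:150236458-150236707, plus strand: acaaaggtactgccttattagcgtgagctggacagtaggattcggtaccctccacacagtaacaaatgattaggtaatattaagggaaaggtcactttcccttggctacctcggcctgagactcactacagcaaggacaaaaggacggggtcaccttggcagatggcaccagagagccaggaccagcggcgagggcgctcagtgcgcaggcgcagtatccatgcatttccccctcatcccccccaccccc

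Eno2, chr6:124769674-124769923, minus strand: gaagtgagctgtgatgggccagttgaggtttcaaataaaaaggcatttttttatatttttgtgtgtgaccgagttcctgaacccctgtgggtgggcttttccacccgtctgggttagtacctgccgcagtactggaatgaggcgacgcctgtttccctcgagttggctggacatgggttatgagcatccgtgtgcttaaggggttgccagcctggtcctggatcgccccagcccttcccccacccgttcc

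Gpr19 has 4 RefSeq starts, and its window is that of the start nearest to the annotated gene start. This RefSeq start lies 653 bases downstream of the annotated one, so the window falls inside the annotated gene. It holds 1 match. The windows of Eno1 and Eno2 hold 0. Matches were found in 3.06% of 32851 RefSeq windows of this length, 5.75% of those of well-detected genes, 4.46% of those of the lower genes (89 of 119 matched by symbol) and 6.67% of those of the higher genes (21 of 29 matched). The lower genes with a match were Gpr19, Lhx2, Serpine2 and Spcs1, so Gpr19 was the only one of the 12 named lower genes among them. A match is a run of letters, not a shown binding site.

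**Figure D3:**
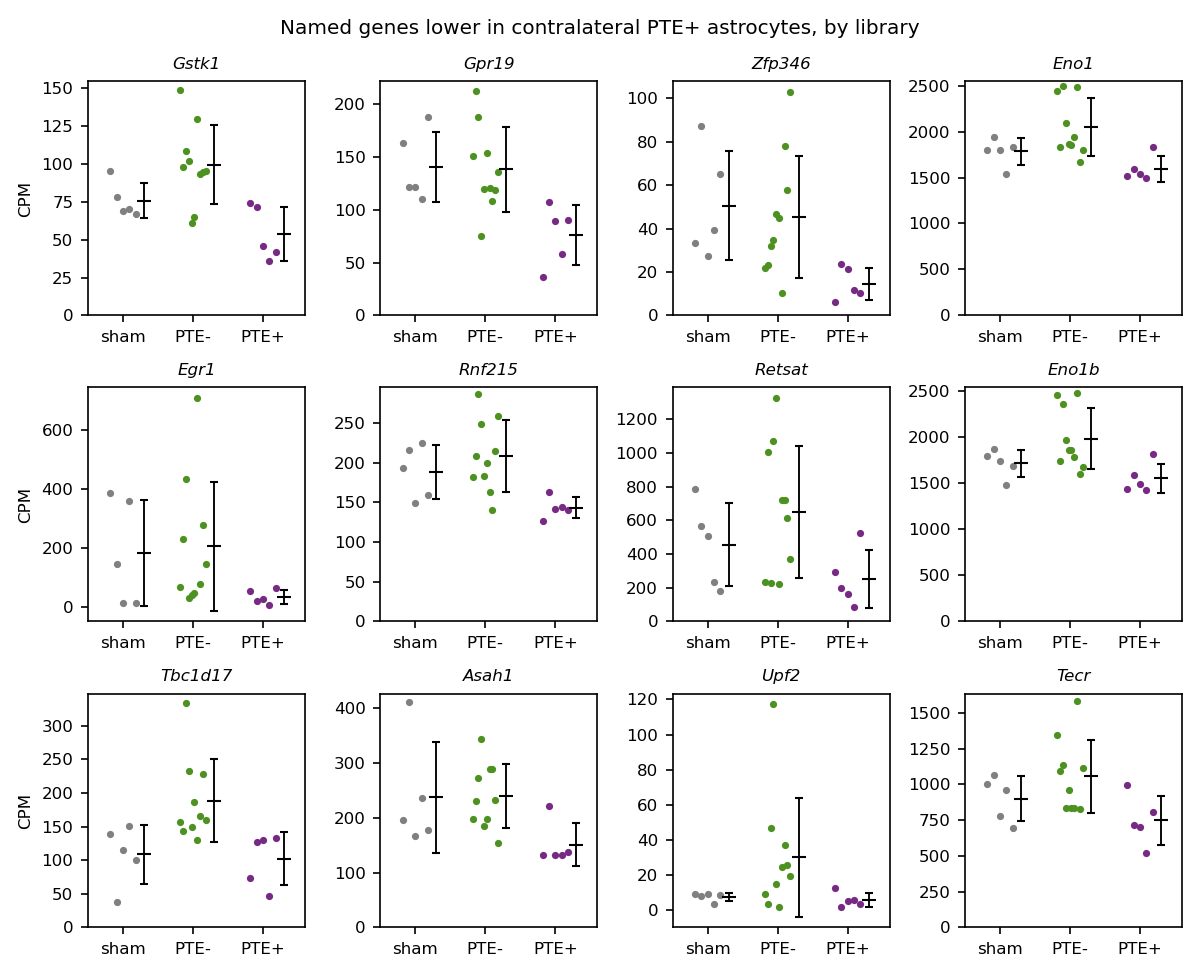
CPM of the 12 named lower genes in each sham (grey, n = 5), PTE- (green, n = 10) and PTE+ (purple, n = 5) library, 1 panel a gene, with the group mean and SD to the right of the points. Every PTE+ library lies below the PTE- median in each panel, while for Tbc1d17 and Upf2 the sham libraries lie near PTE+ and for Gpr19 and Zfp346 near PTE-.

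The higher genes were fewer, less abundant and less even. Their median mean TPM was 42.3 against 135 for the lower genes. Those named are 11 with small p, Eno2, Mprip, Esam, Sptan1, Sgms1, Dnajc5, Socs5, Ap2a2, Ctnnb1, R3hdm2 and Ablim1. In 8 of them every PTE+ library lay above the PTE- median, but 1, Socs5, met the criteria in each of the 15 fits that left out a library. These 11 were also chosen on the same libraries. Several are best known from neurons or endothelium, which is described further on.

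Slc1a2 and Glul, from glutamate uptake and recycling, had 95% intervals within 2-fold. They do not stand for the other genes of this kind, which are not described here. Slc1a2, the main glutamate transporter of astrocytes, was -0.07 (95% interval -0.43 to 0.28), and Glul, the glutamine synthetase, was -0.32 (95% interval -0.66 to 0.02).

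Socs5, a suppressor of cytokine signalling, read 36.0, 40.1, 31.9, 19.6 and 28.6 CPM in PTE+ and ran from 1.47 through 8.40 to 24.5 in PTE-. The log2 fold change was 1.48 (SE 0.59, unadjusted p 0.0195), and 4 of the 5 PTE+ libraries exceeded all PTE- libraries. Ctnnb1, which encodes beta-catenin of adherens junctions and the Wnt pathway, averaged 503 ± 117 CPM (SD, n = 5) against 338 ± 99.3 (SD, n = 10). This gave a log2 fold change of 0.57 (SE 0.23, unadjusted p 0.0228), and sham averaged 348 ± 143 CPM (SD, n = 5).

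Among the other named higher genes, Mprip, Sptan1 and R3hdm2 each lost the call when 1 PTE+ library was left out. Mprip, which targets myosin phosphatase to actin, read 313, 131, 156, 173 and 155 CPM in PTE+ and ran from 45.0 through 112 to 156 in PTE-. A log2 fold change of 0.75 (SE 0.28, unadjusted p 0.0133) resulted, and without mouse a8_10 it was 0.47 (unadjusted p 0.112). Sptan1, a spectrin of the membrane skeleton, was 1.76-fold higher, mouse a9_18 holding the highest value of 333 CPM, and without that mouse its log2 fold change was 0.50 (unadjusted p 0.137). Ablim1, an actin-binding LIM protein, was 2.29-fold higher (179.9 ± 69.0 against 78.4 ± 49.8 CPM). Its lowest PTE- value, 2.21 CPM, and that of Ap2a2, an adaptor subunit of endocytic clathrin coats, both came from mouse a9_20. Without the 3 libraries that stood apart, the log2 fold changes of Ablim1 and Ap2a2 were 0.93 and 1.32, both with an unadjusted p under 0.05 (edgeR). With 1 library left out, their largest unadjusted p was 0.0749 (Ablim1, without PTE+ mouse a9_18) and 0.0511 (Ap2a2, without PTE+ mouse a9_19). R3hdm2, which encodes an R3H domain protein, was 2.05-fold higher, with mouse a9_18 highest at 98.4 CPM and an unadjusted p of 0.149 without that mouse.

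**Figure D4:**
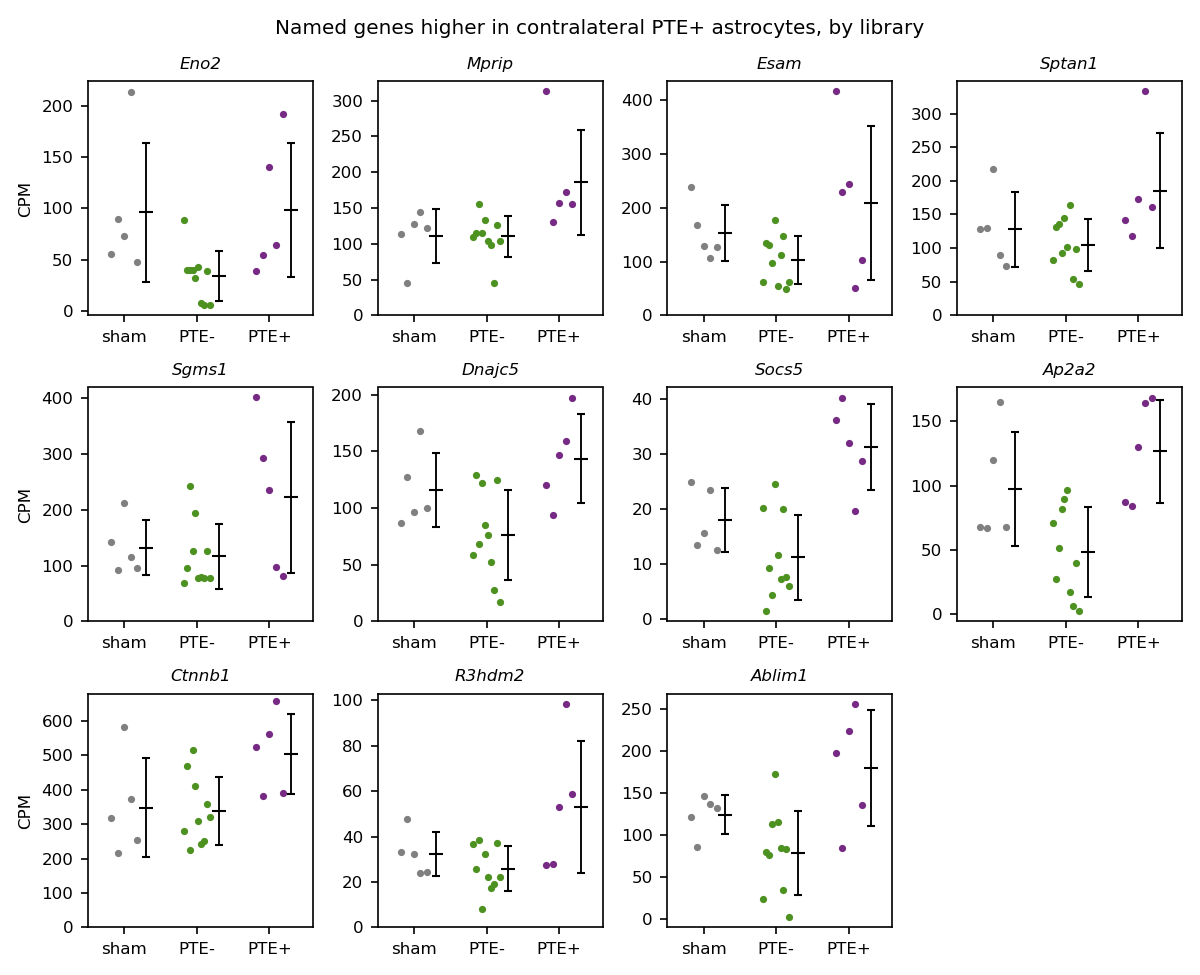
CPM of the 11 named higher genes in each sham (grey, n = 5), PTE- (green, n = 10) and PTE+ (purple, n = 5) library, 1 panel a gene, with the group mean and SD to the right of the points. Socs5 has 4 PTE+ libraries above all PTE- libraries, while Esam and Sgms1 have their highest value in mouse a8_10.

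Astrocyte identity genes were all well detected, 33 of 33, which is what the label of the cells implies. Of these 30 had lower estimates in PTE+ (64.9% of all 6000 genes did), with a median log2 fold change of -0.21 beside -0.13 for all well-detected genes, and 31 had 95% intervals within 2-fold. Called lower were 5 and higher 0, namely Gjb6, Mlc1, Apoe, Clu and Plpp3. Gjb6, the gap junction protein connexin 30, averaged 717 ± 208 CPM (SD, n = 5) against 996 ± 243 (SD, n = 10), with 4 PTE+ libraries at 577 to 646 CPM and mouse a8_17 at 1085. Plpp3, a phospholipid phosphatase, was lower by 0.28 on the log2 scale (SE 0.12, unadjusted p 0.0248). Mlc1, a membrane protein of astrocyte endfeet, was -0.30 (95% interval -0.58 to -0.03).

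These astrocyte calls were small and moved with single libraries. With 1 library left out the number of lower astrocyte identity genes ran from 0 (without PTE+ mouse a9_17 or a9_19) to 8 (without PTE- mouse a9_14), with 1 when PTE- mouse a8_11 or a8_13 was out. It was 2 without the 3 libraries that stood apart, 1 when scaled on the well-detected genes, 0 on log2(TPM + 1) and 13 in quality-weighted limma. The median of the list stayed below 0 in each of these settings. In TPM the summed level of the 33 genes ran from 125898 to 141904 in PTE+, from 134301 to 194583 in PTE- and from 128421 to 179306 in sham libraries. In bulk libraries fewer astrocytes among the captured cells and less of these transcripts per cell cannot be told apart.

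Apoe and Clu, the main lipoproteins made by astrocytes, were among the most abundant genes of the libraries. Apoe read 31805, 38750.1, 27731, 23873 and 28113 CPM in PTE+ and ran from 29119 through 36872 to 75273 CPM in PTE-. The PTE- maximum of Apoe, of Clu (25784 CPM) and of Prdx6, a peroxiredoxin (7015 CPM), came from the same mouse, a8_11. Without the 3 libraries that stood apart the log2 fold changes were -0.26, -0.31 and -0.32, from -0.42, -0.46 and -0.46. The other lipoprotein and cholesterol genes gave no call, and the median of the 26 was -0.09. Among 24 antioxidant and metallothionein genes Prdx6 was the single call and 22 had lower estimates (median -0.30), and of the complement list only 3 genes, Clu among them, were well detected. Cst3, which encodes the secreted protease inhibitor cystatin C, missed the threshold with a log2 fold change of -0.68 (SE 0.35, unadjusted p 0.0605), and an exact permutation test of log2(CPM + 1) over the 3003 labelings gave a 2-sided p of 0.128.

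Genes that mark the reactive state were measured too loosely to be judged. Only 5 of 13 pan-reactive genes and 5 of 24 A1 and A2 genes were well detected, none of these 10 was called, and 1 had an interval within 2-fold. Gfap was -0.04 with a 95% interval from -0.82 to 0.74, and Vim 0.19 with an interval from -0.69 to 1.07, so a 1.5-fold difference in either direction was within reach of both. Hspb1, a small heat shock protein, averaged 70.1 ± 36.1 CPM (SD, n = 5) against 82.8 ± 56.8 (SD, n = 10), and its sign changed when mouse a9_19 or a8_14 was left out. H2-D1, a class I histocompatibility gene, averaged 834 ± 553 against 640.1 ± 222 CPM, and the highest library, PTE+ mouse a9_17, read 1767 CPM.

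Secreted and matrix proteins included 4 lower genes. In the synapse-organizing list 3 of 17 were called lower, Mdk (midkine, a growth factor; -0.63), Mfge8 (a bridging protein for phagocytosis; -0.32) and Igfbp2 (a binding protein of insulin-like growth factors; -0.44), and 13 had lower estimates (median -0.18). None of the 3 was called without mouse a8_11 or without mouse a9_19, and the median was 0.04 on log2(TPM + 1). Among 16 extracellular matrix genes 1 was called, Sdc2, a heparan sulfate proteoglycan (184 ± 30.8 against 253 ± 40.8 CPM, log2 fold change -0.46, SE 0.18, unadjusted p 0.0152). Sham averaged 276 ± 50.9 CPM for Sdc2 (SD, n = 5). Ptn, the pleiotrophin gene related to Mdk, was -0.38 (unadjusted p 0.0787).

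Lists of core cell functions held 0 to 2 called genes each, which at the overall share of 2.47% is no result about them. Of 47 nuclear genes of oxidative phosphorylation 0 were called, 41 had lower estimates (median -0.19) and 34 had intervals within 2-fold. Of 52 cytosolic ribosomal protein genes 0 were called (median -0.12), but 16 had intervals within 2-fold. Of 26 proteasome and ubiquitin genes 0 were called (median -0.18), of 34 splicing genes 0 (median -0.16), of 18 translation factors 0 (median -0.08) and of 25 genes of mRNA stability and decay 0 (median -0.10). The smallest p of these lists belonged to Atp5b (-0.22), Rpl24 (-0.58), Psmb6 (-0.45), Rbm25 (-0.56), Eif4g3 (1.01) and Cnot8 (-0.64), each with a 95% interval that included 0. On log2(TPM + 1) each of these 6 medians was above 0, from 0.03 to 0.26, where the median of all well-detected genes was 0.10. Of 26 chaperones 2 were called lower, Stip1, which links the heat shock proteins Hsp70 and Hsp90 (108 ± 32.8 against 168 ± 48.3 CPM), and Pdia3, a disulfide isomerase of the endoplasmic reticulum (462 ± 71.9 against 619 ± 126 CPM).

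The 13 well-detected mitochondrially encoded genes varied too much between libraries to be compared. Their share of counts ran from 1.23% to 3.74% in PTE+ and from 0.527% to 5.87% in PTE- libraries, the highest in mouse a8_11. The median log2 fold change was 0.05, 1 of the 13 had an interval within 2-fold and 0 were called. For mt-Co3, a subunit of cytochrome oxidase, the estimate was 0.05 with a 95% interval from -1.09 to 1.19.

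Lists of signalling genes held at most 1 call each, again near the overall share of 2.47%. Id4, an inhibitor of basic helix-loop-helix factors downstream of BMP, was called lower among 14 genes of TGF-beta, BMP and STAT3 signalling (482 ± 96 against 670.2 ± 187 CPM), and Ctnnb1 was the call among 21 Notch, Wnt and fate factors. Of 15 interferon and antigen presentation genes, 14 hypoxia genes, 13 glucocorticoid and clock genes and 18 genes of purine and calcium signalling 0 were called, with medians of 0.03, 0.02, -0.14 and 0.01. Camk2d, a calcium-dependent kinase, had the smallest p of the last list (0.45, 95% interval -0.17 to 1.07). Epas1, a hypoxia-inducible factor also abundant in endothelium, was nearest in the hypoxia list (0.57, 95% interval -0.01 to 1.14). Nr3c1, the glucocorticoid receptor, was -0.58 (unadjusted p 0.101), and -0.30 without mouse a9_20. Among 18 junction, potassium and water genes Gjb6 and Mlc1 were the 2 calls, while Aqp4, the water channel of endfeet, was -0.11 (95% interval -0.42 to 0.19) and Gja1, connexin 43, -0.22 (-0.58 to 0.14).

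**Figure D5:**
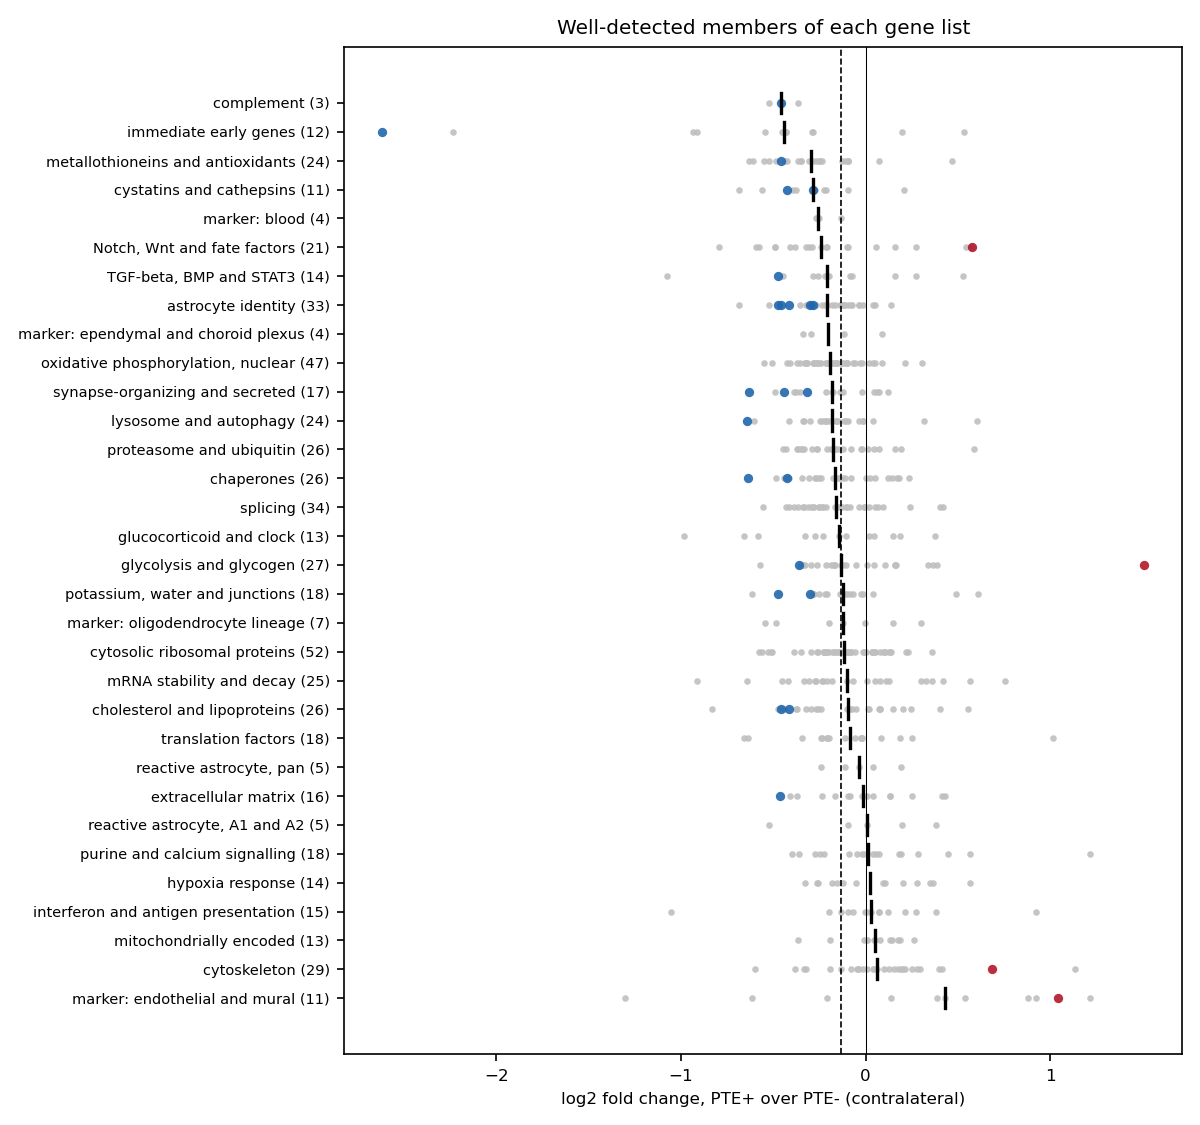
Log2 fold change (PTE+ over PTE-) of each well-detected member of 32 gene lists and marker lists with at least 3 such members, with the number in parentheses. Vertical strokes are list medians, the dashed line is the median of all 6000 genes (-0.13), and blue and red points are called lower and higher; 16 list medians lie below the dashed line, and 16 of the 32 lists hold no called gene.

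The cytoskeleton list gave 1 higher call. Of 29 well-detected cytoskeleton genes 18 had higher estimates, with a median log2 fold change of 0.06 beside -0.13 for all, and the median was above 0 in each alternative, lowest at 0.02 with detected genes per library as a covariate, where 14 of the 29 had lower estimates. The list was not tested against other genes. Map2, a microtubule-associated protein best known from dendrites, was the single call, at 64.7, 154, 180.1, 194 and 265 CPM in PTE+ and 66.9 through 95.3 to 183 in PTE-. On the log2 scale the difference was 0.68 (SE 0.29, unadjusted p 0.0277), and 0.48 (unadjusted p 0.13) without mouse a9_19. Map1b, another such protein of axons, was 1.14 (95% interval -0.04 to 2.31). Eml1, a microtubule-binding protein, was 0.41 (95% interval -1.12 to 1.94).

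Markers of other cell types were present in the libraries, and 1 PTE+ library was highest in neuronal markers and in several higher genes. Only 2 of 15 neuronal markers were well detected, Snap25 and Syt1, which serve synaptic vesicle release. Snap25 was called higher, with 209 ± 252 CPM in PTE+ (SD, n = 5) and 81.8 ± 63.0 in PTE- (SD, n = 10), and Syt1 was 1.49 (95% interval -0.36 to 3.33). In TPM, the 15 neuronal markers summed to 280 to 1438 (median 599) in PTE+ and 146 to 703 (median 252) in PTE- libraries. Sham libraries ran from 164 to 783 (median 491). No neuronal marker was at 0 throughout a group. The highest sum was in PTE+ mouse a9_19, which also held the highest PTE+ value of Eno2, Dnajc5 (a chaperone of synaptic vesicles), Ap2a2 and Map2. The highest PTE- sum was in mouse a8_9, and the PTE- maxima of Eno2, Dnajc5, Ap2a2 and Map2 were in mice a8_11, a8_13, a9_13 and a8_14. The part of the neuronal markers in the differences of these genes was not tested.

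Endothelial and mural markers were uneven among the PTE+ libraries. Of 15, 11 were well detected, 8 had higher estimates (median 0.43) and 1 was called, Ly6c1, an endothelial surface protein. It read 1181, 493.3, 469, 135 and 113 CPM in PTE+ and ran from 69.3 through 223 to 460.2 in PTE-, and without mouse a8_10 its log2 fold change was 0.38 (unadjusted p 0.434) in place of 1.04. The summed TPM of the 15 markers was 9797 in mouse a8_10, 2235 at the lowest PTE+ library, and 1244 to 4349 in PTE-. Its median was 3593 in PTE+ and 3854 in PTE-. Mouse a8_10 also held the highest value of Esam, an adhesion molecule of endothelial junctions (417 CPM), of Sgms1, a sphingomyelin synthase (401 CPM), and of Mprip. Without it the log2 fold changes of Esam and Sgms1 were 0.61 (unadjusted p 0.132) and 0.60 (unadjusted p 0.126), from 1.02 and 0.93. The part of endothelial RNA in these differences was not tested.

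The remaining markers gave no call among the 1 microglial, 7 oligodendrocyte, 4 ependymal and 4 blood genes that were well detected. Summed TPM of 15 microglial and macrophage markers ran from 561 to 1110.5 in PTE+ and 27.1 to 1668 in PTE-, and that of 15 oligodendrocyte lineage markers from 722 to 2042 and 859 to 1625. The 10 ependymal and choroid plexus markers summed to 367 to 2170 and 504 to 3404, and the 5 blood genes to 704 to 8547 and 1380.4 to 16536. In no group was a marker of these lists at 0 in every library. Olig2, the lineage factor of oligodendrocytes, Tmem212, an ependymal gene, and Hba-a1, an alpha globin, had log2 fold changes of -0.49, -0.34 and -0.27, with 95% intervals that spanned 0.

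On the count scale, shorter genes had lower estimates in PTE+ than longer genes. Over 5997 genes with an annotated exon length, the median log2 fold change was -0.22, -0.15, -0.08 and -0.04 in 4 blocks of equal size from the shortest to the longest genes. On log2(TPM + 1) the order was the same but the medians were above 0, from 0.02 to 0.18. Of the lower calls 44, 36, 26 and 13 fell in these blocks and of the higher calls 3, 5, 11 and 10, and median exon length was 3527 bases for lower and 6000 for higher genes beside 4603 for all. Within a library, the Spearman correlation of exon length with level across genes ran from -0.205 to -0.0056 in PTE+ and from -0.321 (mouse a8_11) to 0.0171 in PTE-. The correlation of length with the log2 fold change was 0.202 across genes, and 0.0957 without the 3 libraries that stood apart. Genes are not independent replicates, and the part of length in the differences was not tested.

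The same genes were also measured on the injured side. Ipsilateral libraries exist for 4 PTE+ and 8 PTE- mice, and 1.75% of 14903 genes tested there had an unadjusted p under 0.05 (edgeR). Of the 119 genes lower contralaterally 72 also had a lower ipsilateral estimate (3126, or 52.1%, of all 6000 did) and 0 had an unadjusted p under 0.05. Of the 29 higher genes 20 had a higher estimate there and 0 had an unadjusted p under 0.05. Over all 6000 genes 34 had one ipsilaterally, or 0.567%, so the counts of 0 say nothing particular about the called genes. The median ipsilateral log2 fold change was -0.09 for the lower and 0.29 for the higher genes, from -0.66 and 1.02 contralaterally. Whether the 2 sides differ was not tested, and both hippocampi of a mouse come from the same animal.

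Near the limit of 10 counts little was called. At a lowest count of exactly 10 there were 62 genes, with log2 fold changes from -2.13 to 1.37 and 0 calls by edgeR. At a lowest count of 9, just outside, there were 71, from -2.37 to 2.11, with 1 call.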

How the data were processed

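The deposited tables hold, per the file headers, expected counts and TPM per gene and library. According to the submitters' processing notes and the methods, the authors trimmed paired reads of SMART-Seq V4 libraries with Trim Galore 0.6.4 and estimated these counts, and TPM normalized for transcript length, with RSEM 1.2.28 and Bowtie2 2.4.1 on mm10. The annotation release is not given in the sources used here. The kit does not mark strand, so reads from overlapping antisense genes cannot be told apart, and amplified reads without molecular identifiers are not independent molecules. Eno1 and Eno1b, Hba-a1, H2-D1 and Ly6c1 have close relatives, so their counts are uncertain.

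The deposited expected counts were whole numbers. Genes kept by filterByExpr were fitted in edgeR 4.0.16 (TMM scaling, quasi-likelihood test) with the contralateral PTE+, PTE- and sham groups in one model, and p-values were adjusted over all 14642 tested genes. CPM are TMM-scaled, values are mean ± SD over mice, and 95% intervals use the fit's standard error. The criteria follow the methods, which used DESeq2 (version 1.36.0). Alternatives used DESeq2 1.42.0, limma 3.58.1 with voom and quality weights, and limma on log2(TPM + 1), with R 4.3.3. Others were RLE size factors, no filter, the well-detected genes or the injured groups alone, name prefix or detected genes as covariate, other count, fold and TPM minimums, and each library left out. The code was tested on simulated counts. Gene coordinates and exon lengths came from GENCODE vM21 (GRCm38).

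The well-detected genes, the gene lists and the tests were chosen with earlier results of these data known. Genes were named by rule, as up to 12 per direction with the smallest p among called genes whose sign held with each library left out, genes the study discusses for this comparison, the smallest p in each list with at least 3 members, and the 5 genes with the highest TPM. Some genes that this rule selects, and 1 gene list, are not reported here. Other genes of the lists are given as members of them. Samples were grouped by the labels. Replicates are separate mice.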

Additional observations from a re-analysis of the deposited data

Results flagged for a closer look

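In 114 groups examined (57 named genes in 5 PTE+ or 10 PTE- libraries, on log2(CPM + 1)), 12 held a library whose gap to its neighbour was large for the range of its group. Chance alone flags about 1 in 20 groups. PTE+ mouse a8_17 was the isolated high library for Asah1 (221 CPM, next 137) and Gjb6 (1085 CPM, next 646) and the isolated low one for Map1b (11.8 CPM, next 99.5). PTE+ mouse a9_19 was low for Hspb1 (15.5 CPM, next 70.4). PTE- mouse a8_11 was high for Apoe (75273 CPM, next 42553) and Mdk (233 CPM, next 145). PTE- mouse a9_15 was low for Mprip (45.0 CPM, next 98.6) and high for Ptn (2066 CPM, next 1487). PTE- mouse a8_9 was low for R3hdm2 (8.17 CPM, next 17.2) and Lamp2 (69.7 CPM, next 229). PTE- mouse a9_20 was low for Ablim1 (2.21 CPM, next 23.6) and Eif4g3, a translation initiation factor (1.70 CPM, next 12.99).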

How the results depend on the processing

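No paired analysis was possible because the replicate names are those of single mice, and PTE+ and PTE- mice share none. The number of well-detected genes meeting the criteria (148; 149 on unadjusted p alone) was 268 (284) in DESeq2, 434 (450) in quality-weighted limma and 80 (81) with detected genes as a covariate, with 146, 96 and 56 of the 148 shared. With 1 library left out it ran from 94 to 186 (95 to 187 on p alone), lowest without PTE+ mice a9_17 (94) and a9_18 (98). Without the 3 libraries that stood apart, an alternative chosen after seeing the data, it was 187 (49 higher, 138 lower), with 101 shared. Genes with an adjusted p under 0.05 numbered 0 in the edgeR and limma alternatives run for them and 2 in DESeq2. For Cst3 the log2 fold change was -0.64 in DESeq2, where it also missed p under 0.05, -0.69 with name prefix as a covariate, -0.75 with detected genes and -0.92 in quality-weighted limma, each with an unadjusted p under 0.05, and ran from -0.84 to -0.36 with 1 library left out, past that threshold without PTE+ mouse a8_10 or a8_17 or PTE- mouse a9_14, a9_16 or a9_20. The 23 genes named by direction were chosen to keep their sign with each library left out. They also kept it in the other alternatives, which use the same libraries and are no separate check. Fewest of the 23 had p under 0.05 with detected genes as a covariate and on log2(TPM + 0.1), 15 each.

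Among the named genes, signs turned in uncalled ones. In quality-weighted limma Olig2 was 0.39 and Hba-a1 0.56. With detected genes as a covariate Olig2 was 0.079, Hba-a1 0.18, mt-Atp6 -0.088 and mt-Co3 -0.18. With 1 library left out the ranges were -0.51 to 0.050 for Hspb1, -0.092 to 0.58 for H2-D1, -0.71 to 0.15 for Tmem212, -0.68 to 0.11 for Hba-a1, -0.15 to 0.45 for mt-Atp6 and -0.32 to 0.69 for mt-Co3. The cause was not tested. Other counts stayed within 1.5 times, though the split moved as described. With 5 PTE+ libraries, most genes had intervals that reached past 2-fold.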
